A study of Mus musculus with 9 samples.

Results

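The genes described here are those named for the proteins of the cytosolic ribosome, followed in the blood RNA of 9 mice. Members were taken by symbol: every gene whose symbol is Rpl or Rps followed by a digit, together with Rpsa, Rplp0, Rplp1 and Rplp2. The kinases and binding proteins named after Rps6 and Rps19 and the symbols marked as pseudogenes by "-ps" were left out. GENCODE also annotates Rpl32l and Rpl37rt as processed pseudogenes, and these were kept because the rule went by symbol. This rule found 87 of the 20926 genes listed, of which 33 belong to the small subunit, 51 to the large subunit and 3 to the stalk of the large subunit. Rps27 and its retrogene copy Rps27rt were added together, which left 86 members, and 84 of these passed the filter on low values and were tested. Rpl10l and Rpl39l, paralogs known from the testis, were listed at 0 in all 9 libraries. By GENCODE on GRCm38, the members lie on 19 chromosomes, with 14 on chromosome 7 and 4 on the X chromosome.

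There were 3 libraries a group, named Ctrl, CIA and CIA+THz, all from male DBA/1 mice labelled as 7 weeks old. Collagen-induced arthritis (CIA), which models rheumatoid arthritis, was set up by immunization with chick type II collagen in complete Freund's adjuvant and a booster in incomplete adjuvant. The CIA+THz mice had the same immunization, and for 14 days their swollen ankles received 0.1 THz radiation under isoflurane, 30 min daily. For Ctrl and CIA no anaesthesia was described, so that irradiation and anaesthesia cannot be told apart here. The samples were labelled as blood leukocytes, but the RNA was taken from total blood, and genes of red cell precursors made up the most abundant of the cell type lists in every library. In such bulk RNA, fewer cells of a type and less RNA per cell cannot be told apart.

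Each ribosome holds one copy of almost every ribosomal protein, and cells therefore produce these proteins in nearly equal amounts from highly expressed mRNAs. Most of these mRNAs start with a C followed by a run of pyrimidines, the 5′ terminal oligopyrimidine (TOP) tract, through which the kinase complex mTORC1 and the protein Larp1 control their translation. In blood, ribosomal protein mRNAs are abundant in lymphocytes and are also carried by young red cells and platelets.

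The start region could be read for 67 of the 87 members in the promoter windows of RefSeq on GRCm38.p6, which gave 79 windows. A C at the annotated start followed by 4 or more pyrimidines was found in 15 of them (18.99%) and in 2.51% of all 32851 windows. The motif CCGGAAG, bound by ETS factors, was found on either strand in 34.18% of the members' windows and in 8.86% of all windows, and the GC box GGGCGG in 58.23% and 35.66%. TATAAA was found in 10.13% and 13.62%, and AAGATGGC, the core of the YY1 motif, in 10.13% and 2.75%, all searched on both strands. None of these motifs contains another, and each match is a description of letters in a window. The annotated starts of the other members read, among them Rplp0 and Rpl41, did not begin such a tract. The distance from a start to the nearest tract was not measured. The following lines show 20 bases on each side of the start for members whose levels are described below, on the strand of the gene, with the tract from the start base on in capitals. Rps27 and Rps27rt are shown because the same mRNA sequence begins at different places in the genome, Rps6 and Rpl28 as tracts of 9 and 8 bases, and Rpl14 because it was not lower in CIA+THz than in CIA.
Rps27, chr3:90213629-90213668, minus strand: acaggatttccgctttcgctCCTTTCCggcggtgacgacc
Rps27rt, chr9:114982720-114982759, minus strand: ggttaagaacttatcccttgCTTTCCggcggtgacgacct
Rps6, chr4:86857348-86857387, minus strand: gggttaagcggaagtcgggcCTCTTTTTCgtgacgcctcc
Rpl28, chr7:4792945-4792984, plus strand: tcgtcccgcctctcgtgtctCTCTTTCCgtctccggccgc
Rpl14, chr9:120571497-120571536, plus strand: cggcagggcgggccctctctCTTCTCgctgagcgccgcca

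The values are FPKM, mapped fragments per unit of transcript length and of library total. They were divided by 1 factor per library, the median of ratios over the genes above 0 in all libraries, and are called rescaled FPKM. The factors lay between 0.847 and 1.06 in Ctrl and CIA and between 1.10 and 1.24 in CIA+THz. Without them the median of all genes in CIA+THz against CIA was 0.27 higher on the log2 scale, and in CIA+THz against Ctrl it was 0.29 higher, so the direction of a change in these comparisons depends on the scaling. With rescaled FPKM and all libraries, counts and medians over the members are set beside those of all genes. Counts in the other settings have no share of all genes beside them. Fold changes were taken on the scale log2(rescaled FPKM + 0.1), which understates those of low genes, and tested with limma. As the files hold no counts, the depth behind a value is unknown. Most values had the form of a weighted mean over transcripts, so the levels of different genes were compared only by their order and as shares of summed FPKM.

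Together, the members made up 8.06%, 9.17% and 8.74% of the summed FPKM of the Ctrl libraries. The shares were 11.3%, 10.2% and 10.02% in CIA and between 9.64% and 10.5% in CIA+THz. Every CIA and CIA+THz library was thus above every Ctrl library, while CIA and CIA+THz overlapped. The summed rescaled FPKM of the members was 58360 ± 6680 (SD, n = 3) in CIA, above 47850 ± 7870 in Ctrl and 44400 ± 832 in CIA+THz. As deposited, the CIA+THz mean was 51485, between those of Ctrl and CIA. Rplp0 alone held between 14.6% and 22.1% of the members' sum, with the 3 lowest shares in the CIA+THz libraries.

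Across Ctrl, CIA and CIA+THz, 35 of the 84 members tested, or 41.7%, had an unadjusted p under 0.05 in the moderated F-test of limma, against 21.3% of the 12365 genes tested. An adjusted p under 0.05 was found for 4 members, against 2.55% of all genes. Among these were Rpl7l1, Rplp1 and Rpl28, with adjusted p of 0.0168, 0.0433 and 0.0486 by limma. All 3 were highest in CIA.

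**Figure D1:**
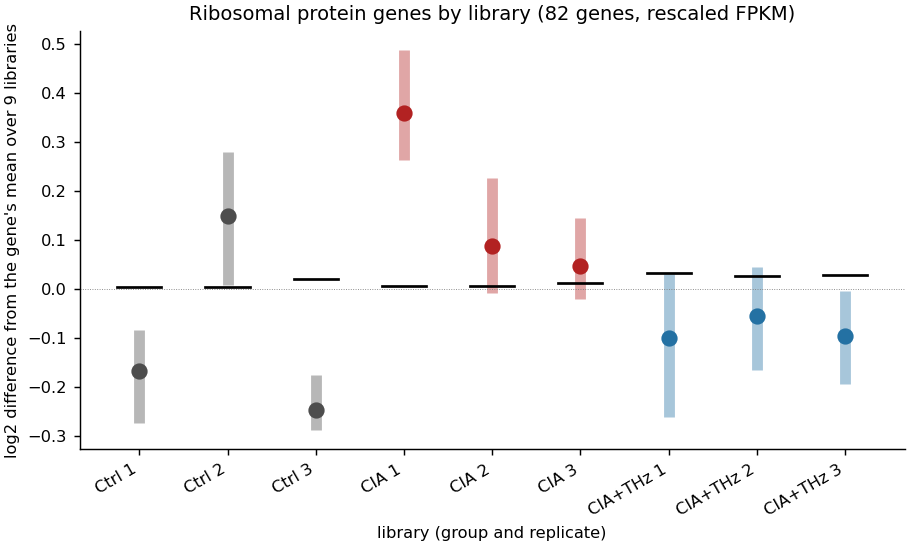
Median log2 difference of 82 ribosomal protein genes from each gene's own mean over 9 libraries (points), with the interquartile range (bars) and the median of all genes tested (black lines), by library. The CIA libraries lie at 0.36, 0.09 and 0.05 and the CIA+THz libraries between -0.10 and -0.06, while the Ctrl libraries spread from -0.25 to 0.15. Values are rescaled FPKM.

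Within a library the members moved together, and libraries of a group differed. For the 82 members whose mean rescaled FPKM reached 20, the median log2 difference from the gene's own mean was -0.17, 0.15 and -0.25 in the Ctrl libraries 1, 2 and 3. It was 0.36, 0.09 and 0.05 in the CIA libraries and -0.10, -0.06 and -0.09 in the CIA+THz libraries. Ctrl 2 lay above CIA 2 and CIA 3, and CIA 1 above all others, whereas the CIA+THz libraries were close to each other. The counts at an unadjusted p under 0.05 are therefore also given without Ctrl 2 or without CIA 1.

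In CIA against Ctrl, 79 of the 84 members were higher in CIA by sign, against 49.3% of all genes. The median log2 fold change of the members was 0.25, and that of all genes was -0.01. An unadjusted p under 0.05 was found for 23 members, all higher, against 8.86% of all genes higher and 8.46% lower at that threshold. The groups did not overlap for 24 members, all higher in CIA, against 11.8% of all genes. The criterion of the study adds to that p an absolute log2 fold change above 0.67, and 2 higher members met it, against 4.79% of all genes. They were Rpl7l1 and the sum of Rps27 and Rps27rt. No member had an adjusted p under 0.05 by limma, where 0.218% of all genes had one.

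By subunit, the median log2 fold change of this comparison was 0.25 over 32 members of the small subunit, 0.23 over 49 of the large subunit and 0.43 over the 3 stalk genes. The 23 members with an unadjusted p under 0.05 comprised 8 of the small subunit, 13 of the large subunit and 2 of the stalk. Without CIA 1 the count was 7, and it was also 7 without Ctrl 1 and 10 without Ctrl 3, while without Ctrl 2 it was 33. After a correction for transcript length across all genes, the count was 8, of which 7 were higher, and the median was 0.09. After a correction for GC content the count was 13, all higher. The share of all genes at that threshold is not given for these settings, so these counts are not compared with all genes.

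In CIA+THz against CIA, 74 of the 84 members were lower in CIA+THz by sign, against 47.1% of all genes, but with FPKM as deposited 36 were lower and 48 higher. The median log2 fold change was -0.24 for the members and 0.03 for all genes, and with FPKM as deposited it was 0.04 for the members and 0.29 for all genes. Relative to the median of all genes, the members' median was lower by 0.27 (rescaled) and by 0.25 (as deposited), and 77 and 74 members lay below that median. After a correction for transcript length it was lower by 0.13, with 65 members below, and without CIA 1 by 0.20, with 66 below. With rescaled FPKM, 33 members had an unadjusted p under 0.05, all lower, against 7.33% of all genes. As deposited the count was 16, with 7 higher and 9 lower, and the share of all genes is not given for that setting. The groups did not overlap for 40 members, all lower in CIA+THz with rescaled FPKM, against 10.2% of all genes.

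With rescaled FPKM, 5 members passed the criterion of the study in CIA+THz against CIA, all lower, against 1.6% of all genes. Among them were Rplp0, Rpl41, Rplp1 and Rpl31. As deposited none passed it, though the log2 fold changes of these 4 were still between -0.53 and -0.42. No member had an adjusted p under 0.05 by limma, and no gene of all those tested had one. The smallest adjusted p among all genes was 0.163. The median over the 3 stalk genes was -0.72, against -0.25 for the large and -0.19 for the small subunit. All 3 stalk genes, 21 members of the large and 9 of the small subunit had an unadjusted p under 0.05. Both comparisons share the CIA libraries, so a library of that group that is high or low moves both. Without CIA 1, the median in CIA+THz against CIA was -0.18, 29 members had an unadjusted p under 0.05 (27 lower and 2 higher), and 2 passed the criterion, 1 in each direction. Shares of all genes are not given without CIA 1.

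**Figure D2:**
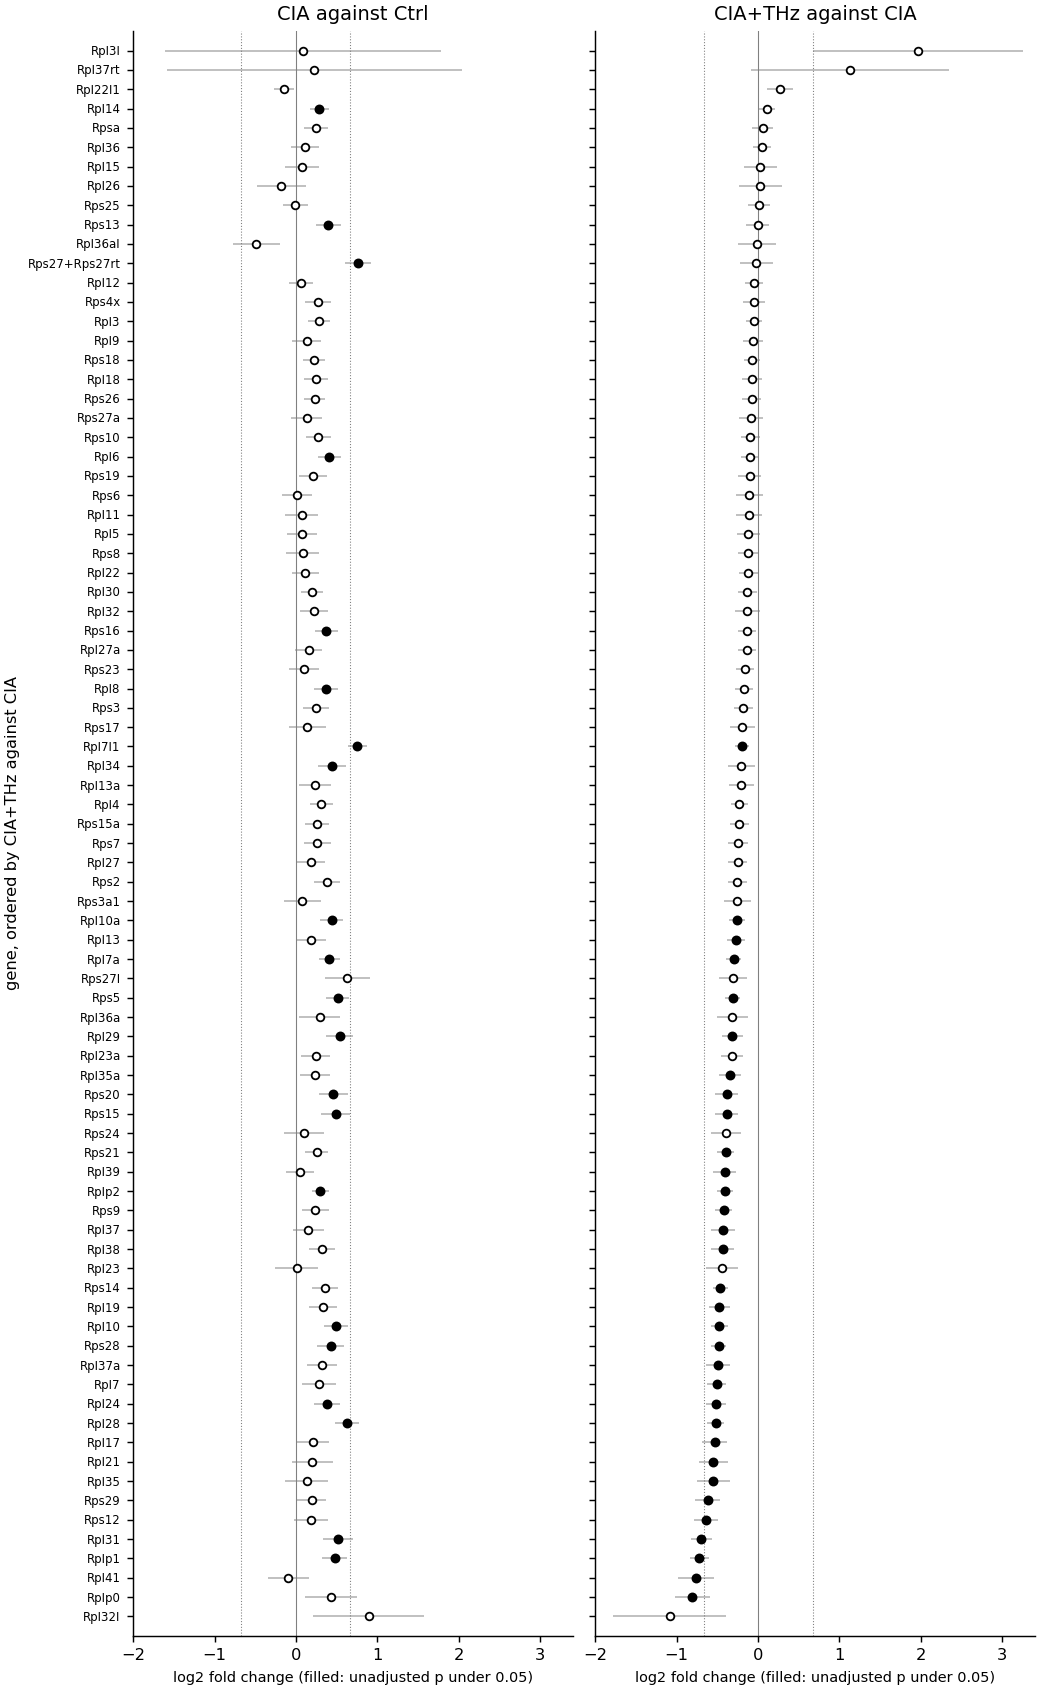
Log2 fold change of 82 of the members tested (points) with its standard error (bars) in CIA against Ctrl and in CIA+THz against CIA, on rescaled FPKM. The other 2 of the 84 members tested are not reported here. Filled points have an unadjusted p under 0.05 by limma, 21 of the 23 such members in the first and 32 of the 33 in the second comparison, and dotted lines mark 0.67 on either side of 0. With FPKM as deposited the second panel would lie higher by about 0.27.

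In CIA+THz against Ctrl the members were spread on both sides of 0, with 44 higher and 40 lower (53.7% of all genes were higher) and a median log2 fold change of 0.01, beside 0.04 for all genes. An unadjusted p under 0.05 was found for 7 higher and 5 lower members, against 8.39% and 9.69% of all genes. The groups did not overlap for 9 higher and 6 lower members, against 11.9% and 12% of all genes. As deposited, 74 members were higher and 10 lower, and their median was 0.32, beside 0.33 for all genes. At an unadjusted p under 0.05, 44 were then higher and 1 lower, whereas after the GC correction 3 were higher and 11 lower, and after the length correction 4 and 14. Shares of all genes are not given for these settings. Against the median of all genes, the members' median was lower by 0.01 as deposited. It was lower by 0.05 after the GC correction and by 0.08 after the length correction. Without Ctrl 2 the split of the members at that threshold was 16 higher and 3 lower with a median of 0.13, and without Ctrl 3 it was 5 higher and 14 lower with a median of -0.07. At the criterion, the sum of Rps27 and Rps27rt was higher and Rpl41 was lower, against 4.64% and 3.23% of all genes, and as deposited 5 members were higher and 0 lower. No member had an adjusted p under 0.05 by limma, where 0.105% of all genes had one.

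**Figure D3:**
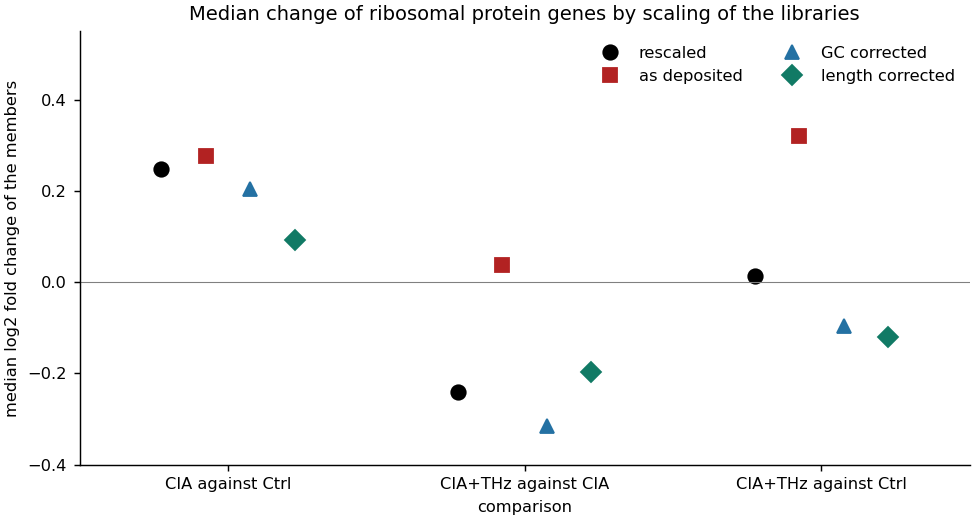
Median log2 fold change over the 84 members in each comparison with rescaled FPKM, FPKM as deposited, and rescaled FPKM corrected for GC content or transcript length. In CIA against Ctrl all 4 medians are above 0, from 0.09 to 0.28. Between CIA+THz and CIA the rescaled median is -0.24 and the median as deposited is 0.04.

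The stalk proteins form the arm of the large subunit that recruits elongation factors. Rplp0, the base of the stalk, had the highest values of the members, with rescaled FPKM of 8034, 11043 and 7585 in Ctrl, 12878, 12370.0 and 10386 in CIA and 6342, 6718 and 7242 in CIA+THz. With rescaled FPKM, every CIA+THz library was below every other library, while Ctrl 2 lay within the CIA range. As deposited, the CIA+THz libraries were still below CIA but overlapped Ctrl. Its log2 fold change was 0.43 ± 0.32 (SE) in CIA against Ctrl (unadjusted p = 0.213, limma) and -0.81 ± 0.21 (SE) in CIA+THz against CIA (unadjusted p = 0.00704, adjusted p = 0.238, limma). Rplp1, a subunit of the stalk dimers, was 509, 595 and 449.9 in Ctrl, 796, 688 and 669.9 in CIA and 402, 429 and 473 in CIA+THz. The CIA libraries were above all others. Rplp1 changed by 0.48 ± 0.15 (SE) in CIA against Ctrl (unadjusted p = 0.0162, limma) and by -0.72 ± 0.12 (SE) in CIA+THz against CIA (unadjusted p = 0.000468, limma). Its partner Rplp2 was 166, 171 and 156 in Ctrl, 212, 185 and 213 in CIA and 141, 159.9 and 157 in CIA+THz. With rescaled FPKM the CIA libraries again lay above all others, but as deposited CIA and CIA+THz overlapped. The rescaled changes were smaller, 0.30 ± 0.11 (SE) and -0.41 ± 0.10 (SE) in the same 2 comparisons (unadjusted p = 0.0275 and 0.00447, limma). With FPKM as deposited, the fold changes in CIA+THz against CIA were -0.53 for Rplp0 and -0.45 for Rplp1, short of the fold of the criterion, and -0.13 for Rplp2, with an unadjusted p of 0.204 by limma. Rplp0 and Rplp1 lie on GRCm38 at 115559467 to 115563727 of chromosome 5 and at 61913284 to 61914542 of chromosome 9.

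Rpl28, a protein of the large subunit, passed the adjusted threshold across the 3 groups. It had rescaled FPKM of 238, 283 and 216 in Ctrl, 425, 359 and 352 in CIA and 247, 280.1 and 262 in CIA+THz. The CIA libraries were above all others, and Ctrl and CIA+THz overlapped. Its log2 fold change was 0.63 ± 0.14 (SE) in CIA against Ctrl (unadjusted p = 0.00316, adjusted p = 0.107, limma) and -0.52 ± 0.11 (SE) in CIA+THz against CIA (unadjusted p = 0.00209, limma). As deposited the second was -0.25 (unadjusted p = 0.0358, limma).

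Rpl31, a protein near the exit of the peptide tunnel, was named after its values were seen, as 1 of the 5 members past the criterion in CIA+THz against CIA. Its rescaled FPKM was 575, 767 and 556 in Ctrl, 1068, 824 and 821 in CIA and 561, 557 and 542 in CIA+THz. CIA did not overlap either of the other groups, and the log2 fold change in CIA+THz against CIA was -0.70 ± 0.13 (SE) (unadjusted p = 0.00119, limma). Rpl10, which joins the large subunit late in its assembly and is needed for subunit joining, was 801, 857 and 677 in Ctrl, 1162, 1039 and 1069 in CIA and 753, 812 and 779 in CIA+THz. Here too the CIA libraries were above all others, with changes of 0.49 ± 0.15 (SE) and -0.48 ± 0.10 (SE) (unadjusted p = 0.0125 and 0.00262, limma). As deposited the second was -0.20, with an unadjusted p of 0.0816 by limma. Rpl41, the smallest ribosomal protein, followed another course, at 1987, 2411 and 1596 in Ctrl, 2458, 1572 and 1621 in CIA and 915, 1059 and 1324 in CIA+THz. Ctrl and CIA overlapped, and all CIA+THz libraries were below both groups. Its log2 fold change was -0.10 ± 0.25 (SE) in CIA against Ctrl, -0.76 ± 0.22 (SE) in CIA+THz against CIA and -0.86 ± 0.21 (SE) in CIA+THz against Ctrl, with an unadjusted p of 0.00421 by limma in the last.

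**Figure D4:**
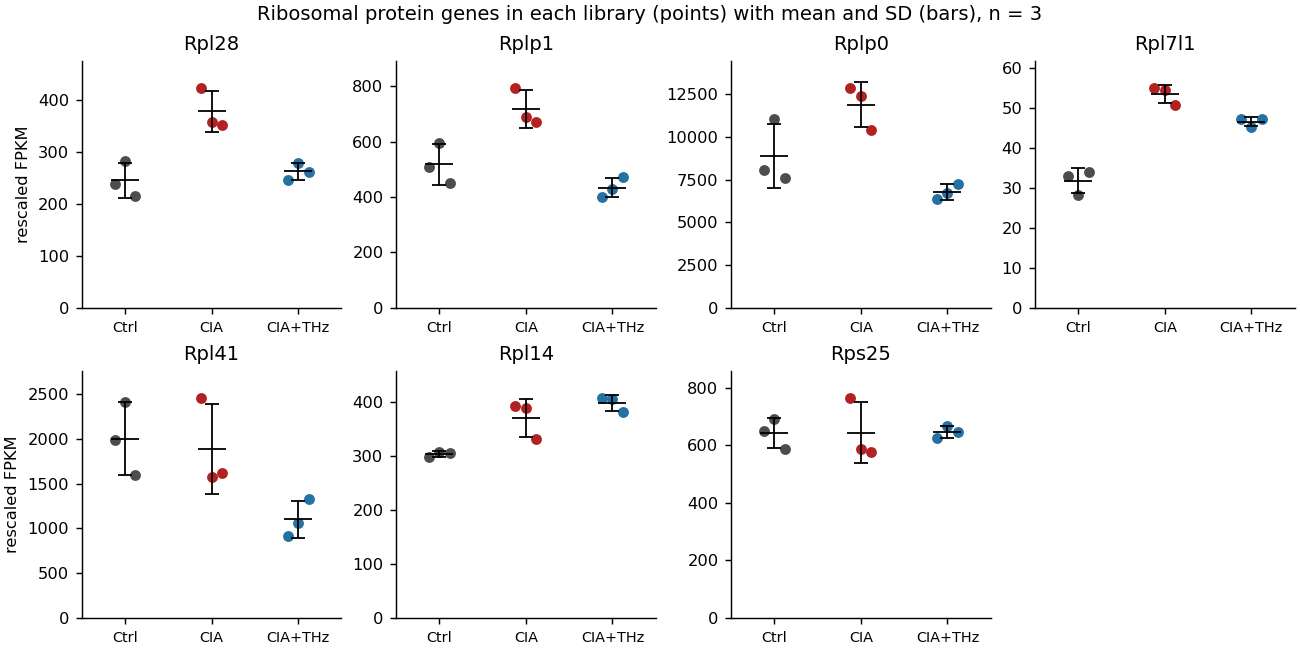
Rescaled FPKM of 7 ribosomal protein genes in each library (points) with the mean and SD (bars, n = 3) of each group, on axes that start at 0. The CIA libraries lie above all others for Rpl28, Rplp1 and Rpl7l1, the CIA+THz libraries lie lowest for Rplp0 and Rpl41, and Rps25 overlaps in all groups. With FPKM as deposited, CIA+THz overlaps Ctrl for Rplp0 and CIA for Rpl7l1.

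Rpl7l1, a paralog of Rpl7 with 62.59% identity over 286 aligned bases, had the smallest p of the members across the 3 groups. Its rescaled FPKM was 33.1, 28.3 and 34.1 in Ctrl, 55.2, 54.5 and 50.9 in CIA and 47.3, 45.4 and 47.2 in CIA+THz. With rescaled FPKM no group overlapped another, and CIA+THz lay between Ctrl and CIA, but as deposited CIA+THz overlapped CIA. The log2 fold change was 0.75 ± 0.12 (SE) in CIA against Ctrl (unadjusted p = 0.000324, adjusted p = 0.0615, limma) and 0.55 ± 0.11 (SE) in CIA+THz against Ctrl (unadjusted p = 0.00108, limma). Between CIA+THz and CIA it was -0.20 ± 0.08 (SE) (unadjusted p = 0.0449, limma), but 0.08 with FPKM as deposited. Rpl7 itself was 359.8, 513 and 305 in Ctrl, 532, 441 and 428 in CIA and 306, 336 and 340.5 in CIA+THz, with all CIA+THz libraries below all CIA libraries.

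Members of the small subunit at the low end in CIA+THz were Rps29 and Rps12. Rps29, a zinc-binding protein of the small subunit, was 754, 795 and 658 in Ctrl, 1037, 786 and 726 in CIA and 541, 533 and 565 in CIA+THz. The CIA+THz libraries were below all others, and Ctrl and CIA overlapped. Its log2 fold change was -0.62 ± 0.15 (SE) in CIA+THz against CIA and -0.43 ± 0.12 (SE) in CIA+THz against Ctrl (unadjusted p = 0.00458 and 0.00795, limma). Rps12 was 1408, 1954 and 1345 in Ctrl, 2053, 1713 and 1543 in CIA and 1049, 1165 and 1172 in CIA+THz. With rescaled FPKM its CIA+THz libraries were likewise below all others, with -0.46 ± 0.18 (SE) in CIA+THz against Ctrl (unadjusted p = 0.0354, limma). As deposited, the CIA+THz libraries overlapped Ctrl for Rps12. With FPKM as deposited neither passed in that comparison, with -0.12 for Rps29 and -0.15 for Rps12 (unadjusted p = 0.233 and 0.241, limma).

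Rps13, a protein of the small subunit, was among the members that were higher in both CIA and CIA+THz than in Ctrl. Its rescaled FPKM was 231, 271 and 255 in Ctrl, 404, 299 and 303 in CIA and 357, 334 and 304 in CIA+THz. All Ctrl libraries were below all others, and CIA and CIA+THz overlapped. In CIA+THz against Ctrl the log2 fold change was 0.39 ± 0.11 (SE) (unadjusted p = 0.00884, limma). After the length correction it was 0.24 (unadjusted p = 0.0656, limma). Rpl14, a protein of the large subunit, had the same order, at 298, 307 and 306 in Ctrl, 392, 389.9 and 331 in CIA and 408, 406 and 381 in CIA+THz. Its log2 fold change in CIA+THz against CIA was 0.11 ± 0.10 (SE), with an unadjusted p of 0.334 by limma. As deposited it was 0.38 (unadjusted p = 0.0105, limma).

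Other members at the ends of the range did not pass the test with rescaled FPKM in the comparison given for them here. Some of them passed it in another comparison, among them Rpl36al in CIA+THz against Ctrl. Rpsa, also known as the laminin receptor, and Rpl36 were between 72.8 and 102 and between 186 and 271 over the 9 libraries. Their log2 fold changes in CIA+THz against CIA were 0.06 ± 0.13 (SE) and 0.05 ± 0.11 (SE). As deposited they were 0.33 and 0.33, with unadjusted p of 0.0416 and 0.0189 by limma, and that of Rpl36 was 0.34 after the length correction (unadjusted p = 0.00618, limma). In CIA against Ctrl the 5 lowest changes were -0.49 ± 0.29 (SE) for Rpl36al, -0.18 ± 0.30 (SE) for Rpl26, -0.15 ± 0.13 (SE) for Rpl22l1, -0.10 for Rpl41 and -0.01 ± 0.16 (SE) for Rps25. Each of these 5 had overlapping Ctrl and CIA libraries. Rps27l, a paralog of Rps27 induced by p53, was between 16.4 and 39.6 and changed by 0.63 ± 0.28 (SE) in CIA against Ctrl (unadjusted p = 0.0556, limma). Rpl32l, with low values, was 2.08, 1.23 and 1.20 in Ctrl, 6.02, 4.001 and 0.861 in CIA and 1.95, 1.02 and 0.999 in CIA+THz. Its high values in CIA 1 and CIA 2 gave changes of 0.89 ± 0.68 (SE) and -1.08 ± 0.70 (SE) whose standard errors were close to the changes themselves. Rpl3l, the muscle paralog of Rpl3, was listed at 0 in 4 libraries and was at most 2.63 in the others.

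Several members with a known role beyond the bulk of the ribosome were followed as well. Rps6, the protein phosphorylated by the S6 kinases, was 71.0, 88.8 and 70.7 in Ctrl, 98.0, 62.7 and 75.1 in CIA and 66.0, 77.5 and 72.1 in CIA+THz. CIA 1 was highest, and all groups overlapped. Rps19, mutated in Diamond-Blackfan anaemia, was between 254 and 413, and Rps4x was between 472 and 734. Rpl5 and Rpl11, which together with an rRNA bind the p53 inhibitor Mdm2, were between 576 and 824 and between 235 and 366. Rps27a, made as a fusion with ubiquitin, was between 695 and 1084. With rescaled FPKM, none of these 6 had an unadjusted p under 0.05 in any of the 3 comparisons by limma. For Rps4x every CIA+THz library was above every Ctrl library, at 0.22 ± 0.11 (SE) on the log2 scale (unadjusted p = 0.083, limma). As deposited this order held for each of the 6, in a setting where the median of all genes was 0.33. Their p as deposited are not given.

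The paralogs of the rule were compared with their parent genes. Rpl22l1, with 74.25% identity to Rpl22, was 36.0, 40.5 and 45.8 in Ctrl, 39.1, 35.3 and 35.8 in CIA and 50.4, 34.8 and 49.6 in CIA+THz, and Rpl22 was between 77.6 and 111. Rpl22l1 was lowest in CIA+THz 2 and highest in CIA+THz 1, so that its CIA+THz libraries spanned the range of all others. Rpl36al, 83.08% identical to Rpl36a over 390 aligned bases, was 60.7, 103 and 66.6 in Ctrl, 70.9, 58.4 and 36.4 in CIA and 50.0, 56.6 and 52.4 in CIA+THz. With rescaled FPKM every CIA+THz library of Rpl36al was below every Ctrl library, with a log2 fold change of -0.49 ± 0.19 (SE) (unadjusted p = 0.0370, limma). As deposited these groups overlapped, and the change was -0.19 (unadjusted p = 0.295, limma). Rpl36a was between 127 and 249. Rpl3 was between 209 and 312. Rpl39 was 351, 375 and 289 in Ctrl, 406, 288 and 360.1 in CIA and 253, 251 and 283 in CIA+THz. With rescaled FPKM its CIA+THz libraries were below all libraries of the other groups, but as deposited they overlapped both groups.

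The sum of Rps27 and Rps27rt passed the criterion in both comparisons with Ctrl, but the assignment of fragments to the copies differed between libraries. Rps27 (chromosome 3, 90212522 to 90213651 of GRCm38) encodes a protein of the small subunit, and Rps27rt (chromosome 9, 114982366 to 114982739) is its retrogene. The transcripts of the pair were identical over all 341 bases that aligned, so that fragments cannot be told apart over this stretch. In the 3 Ctrl libraries, CIA 1 and CIA+THz 2, Rps27 was listed with FPKM between 662 and 1181 and Rps27rt with between 49.6 and 118. In CIA 2, CIA 3, CIA+THz 1 and CIA+THz 3, Rps27rt was listed with between 1520 and 2078 and Rps27 with between 0.737 and 1.46. The share of Rps27rt in the sum was thus between 6.21% and 10.8% in the first 5 libraries and between 99.91% and 99.96% in the other 4.

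The sum itself differed between these sets of libraries. Its rescaled FPKM was 843, 839 and 857 in Ctrl, 1201, 1619 and 1534 in CIA and 1677, 1102 and 1545 in CIA+THz. Within CIA and within CIA+THz, the library with the fragments on Rps27 had the lowest value, and all Ctrl libraries had theirs on Rps27. The log2 fold change of the sum was 0.77 ± 0.16 (SE) in CIA against Ctrl and 0.74 ± 0.18 (SE) in CIA+THz against Ctrl (unadjusted p = 0.00200 and 0.00367, adjusted p = 0.0927 and 0.129, limma). They fell short of the fold of the criterion after the GC correction, at 0.60 and 0.58, and after the length correction, at 0.54 and 0.65. Group and assignment cannot be told apart for this pair, as no Ctrl library was assigned to Rps27rt. Among the libraries assigned to Rps27, CIA 1 at 1201 and CIA+THz 2 at 1102 were above the 3 Ctrl libraries, with 1 library of each group and no test.

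**Figure D5:**
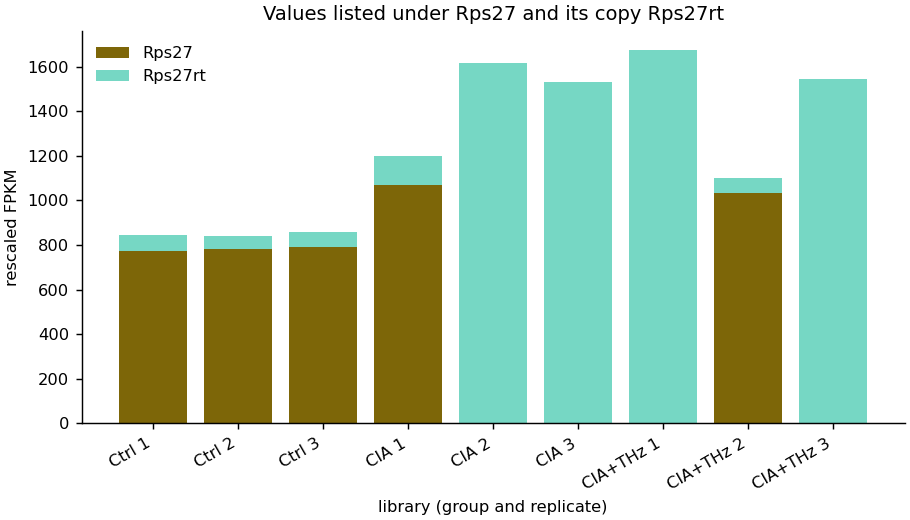
Rescaled FPKM listed under Rps27 and under its copy Rps27rt in each library, stacked. In 4 libraries, CIA 2, CIA 3, CIA+THz 1 and CIA+THz 3, nearly all of the sum stands under Rps27rt, and in these the sum is between 1534 and 1677, above the other 5 libraries.

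Rpl37rt, whose transcript matched that of Rpl37 at 343 of 344 aligned bases (99.71%), was 1.24, 69.4 and 54.1 in Ctrl, 2.13, 62.1 and 57.6 in CIA and 42.3, 46.1 and 43.1 in CIA+THz. Ctrl 1 and CIA 1 were near 0 and the other 7 libraries between 42.3 and 69.4, while Rpl37 was between 205 and 363. The log2 fold changes of Rpl37rt, 1.13 ± 1.22 (SE) in CIA+THz against CIA and 1.36 ± 1.36 (SE) in CIA+THz against Ctrl, rested on these low libraries. Without CIA 1 the first was -0.45, and without Ctrl 1 the second was -0.48.

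The changes within the family were also unequal when the libraries were scaled over the members themselves, a setting chosen after the data were seen that puts the family's median near 0. Of the members, 6 were then higher and 12 lower in CIA+THz against CIA at an unadjusted p under 0.05 by limma. Among the lower ones, the log2 fold change was -0.56 for Rplp0, -0.51 for Rpl41, -0.47 for Rplp1, -0.45 for Rpl31 and -0.37 for Rps29. Among the higher ones, it was 0.52 for Rpl22l1, 0.36 for Rpl14, 0.31 for Rpsa and 0.30 for Rpl36. In CIA against Ctrl 3 members were higher and 1 lower, among them Rpl7l1 at 0.50, Rpl28 at 0.37 and Rpl36al at -0.74. With this scaling the median of all genes was 0.26 in CIA+THz against CIA and -0.25 in CIA against Ctrl. The share of all genes at that threshold is not given for this setting, so these counts compare the members only with each other.

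Transcript length and GC content were followed because they can move with library preparation. Both were taken from the longest GENCODE transcript of each gene, which need not be the transcript expressed in blood. For Rpl22 this was 2051 bases, while its transcript Rpl22-201 has 474. Across 82 members, which are not independent replicates, Pearson's r of the log2 fold change with log2 transcript length was -0.07 in CIA against Ctrl and 0.12 in CIA+THz against CIA. Across the 12197 genes with a length it was -0.15 and 0.12. With GC content it was 0.13 and -0.06 over the members and 0.23 and -0.14 over all genes. Split into 3 parts by length, the members' median in CIA+THz against CIA was -0.32 for 28 members of 383 to 930 bases, -0.25 for 27 of 937 to 1347 bases and -0.18 for 27 of 1358 to 5179 bases. Members with a longer longest transcript were thus nearer to the median of all genes. The length of the mRNA present in blood was not measured. In CIA against Ctrl the same parts were at 0.25, 0.27 and 0.23.

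Other genes of protein synthesis were followed in lists, as counts and medians, beside medians of all genes of -0.01 in CIA against Ctrl and 0.03 in CIA+THz against CIA (0.29 as deposited). Ribosomal proteins whose symbols fall outside the rule include Fau, made as a fusion with a ubiquitin-like protein, and Rack1, a scaffold on the small subunit. Both were higher in CIA than in Ctrl, by 0.50 ± 0.15 (SE) and 0.65 ± 0.12 (SE) on the log2 scale (unadjusted p = 0.0108 and 0.000759, limma). With rescaled FPKM, Rack1 was lower in CIA+THz than CIA, at -0.34 ± 0.09 (SE) (unadjusted p = 0.00772, limma), and Fau was at -0.27 ± 0.14 (SE), which did not pass. As deposited they were at -0.07 and 0.01, and neither passed. Rack1 was 435 ± 26.1 (SD, n = 3) in CIA, above 277.8 ± 20.2 in Ctrl and 342 ± 14.7 in CIA+THz. Fau was 77.8 ± 7.67, 111 ± 17.3 and 91.8 ± 9.88 in Ctrl, CIA and CIA+THz.

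Elongation factors and other genes with TOP mRNAs, 19 of 22 tested, had a median log2 fold change of 0.21 in CIA against Ctrl and of 0.01 in CIA+THz against CIA. In the first comparison 5 were higher and 2 lower at an unadjusted p under 0.05, and in the second 2 were higher and 6 lower, or 9 and 2 as deposited. Eef2, the translocase of elongation, was 369 ± 10.8 (SD, n = 3) in CIA, above 267.6 ± 19.6 in Ctrl and 299 ± 11.9 in CIA+THz. As deposited, its log2 fold change in CIA+THz against CIA was -0.03 (unadjusted p = 0.801, limma). Eif3f, an initiation factor subunit, was 132 ± 6.73 in Ctrl, and 182 ± 11.5 and 184 ± 18.6 in CIA and CIA+THz. Against the list's median, Pabpc1, the poly(A)-binding protein, was 1711 ± 356 in Ctrl, above 1041 ± 200 in CIA and 1172 ± 174 in CIA+THz. As deposited, Pabpc1 changed by -0.23 in CIA+THz against Ctrl (unadjusted p = 0.109, limma). Npm1, a nucleolar chaperone of ribosome assembly, was 107 ± 12.3 in CIA, below 153 ± 19.7 in Ctrl and 150.4 ± 16.5 in CIA+THz.

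Of 40 ribosome biogenesis factors, 19 were higher and 21 lower in CIA than in Ctrl, with a median of -0.04. Then 32 were higher in CIA+THz against CIA with rescaled FPKM, with a median of 0.23, and 2 were higher and 1 lower at an unadjusted p under 0.05. As deposited 37 were higher, 13 of them at that threshold, with a median of 0.49. The ends of this list in CIA against Ctrl were Utp4 and Eif6 at 0.83 and 0.79, and Nop58 and Mdn1 at -0.79 and -0.73. Of these, Utp4 did not pass (unadjusted p = 0.109, limma). Of the 13 genes of RNA polymerase I and rRNA transcription, 10 were higher in CIA+THz than CIA with rescaled FPKM, 1 of them at that threshold, and as deposited all 13, with 7 at that threshold. Polr1a and Taf1c, at 0.68 and 0.57, and Taf1d and Polr1e, at -0.65 and -1.24, were its ends in CIA against Ctrl. Of these, only Polr1e passed (unadjusted p = 0.0345, limma). Among 18 regulators around mTORC1, 1 was higher and 1 lower at that threshold in CIA against Ctrl. Deptor, an inhibitor of mTOR, was higher at 1.08 and Ssb, which binds TOP mRNAs, was lower at -0.70, with Tsc2 at 0.62 and Myc at -0.34 not passing.

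Markers of blood cell types moved with the groups, and their part in the members' changes was not tested. The summed rescaled FPKM of 14 genes of red cell precursors, mostly Alas2, was 79400 to 123000 in Ctrl, 97800 to 111000 in CIA and 54300 to 75400 in CIA+THz. These CIA+THz sums were below all CIA sums. Gene by gene, 12 of the 14 were lower in CIA than Ctrl by sign, 5 at an unadjusted p under 0.05, with a median log2 fold change of -0.71. In CIA+THz against CIA their median was -0.03, with 9 lower and 5 higher, 1 lower at that threshold, and as deposited it was 0.24, with 11 higher. By sign, all 12 neutrophil genes had lower values in CIA+THz than CIA with rescaled FPKM, 10 of them at that threshold (11 and 4 as deposited). Their sums, mostly S100a9, were 12700 to 21400 in Ctrl, 14800 to 19400 in CIA and 10800 to 12300 in CIA+THz. In CIA against Ctrl, 5 of the 12 were higher and 7 lower, with 3 in each direction at that threshold. All 12 monocyte genes had higher values in CIA than Ctrl, 10 at that threshold, with sums of 3180 to 3530 in Ctrl, 5480 to 6080 in CIA and 3690 to 3970 in CIA+THz. Lyz2 made up most of these sums. In CIA+THz against Ctrl, 10 of the 12 were higher and 2 lower, 9 higher at that threshold, with a median of 0.68. As deposited all 12 were higher in that comparison, 10 at that threshold.

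All 13 T cell genes were by sign at their lowest in CIA, 5 of them at an unadjusted p under 0.05 against Ctrl and 9 against CIA+THz. Their sums were 476 to 525 in Ctrl, 361 to 399 in CIA and 469 to 624 in CIA+THz. The 10 B cell genes had sums of 469 to 585, 533 to 694 and 626 to 812 in the same order of groups. Those of 7 NK cell genes were 142 to 184, 50.2 to 114 and 92.9 to 147. For 9 platelet genes they were 4500 to 5550, 4230 to 5420 and 3580 to 4340, and by sign all 9 were lower in CIA+THz than CIA with rescaled FPKM, 5 at that threshold (8 and 0 as deposited). For 8 plasma cell genes they were 116 to 140, 57.2 to 64.3 and 52.2 to 58.2. Gene by gene, 6 of these 8 were higher and 2 lower in CIA+THz than CIA, 1 in each direction at that threshold. Their median log2 fold change was 0.28, or 0.53 as deposited. Every gene of these lists passed the filter on low values.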

How the data were processed

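Blood RNA of 9 mice was sequenced, and the authors deposited 1 FPKM value per gene and library for 20926 genes. The submitters' processing notes name bcl2fastq 2.0, HISAT2, StringTie, DESeq2 and the build mm10, with no role or order; annotation, strand and filters are not given in the sources used here. The deposited FPKM holds no counts, so depth and counting error are unknown. Of 10312 genes above 0 in all libraries, 10311 had values on a grid of whole fractions (divisor up to 60000, tolerance 0.05 in the sixth decimal), as weighted means over transcripts give, and only 151 had the divisor 1.

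FPKM was divided by median-of-ratios factors. The 12365 genes whose mean then reached 0.1 were tested on log2(rescaled FPKM + 0.1) with limma 3.58.1 in R 4.3.3 (lmFit, eBayes with a trend on the mean), for pairs on their 6 libraries. The criterion was an unadjusted p under 0.05, and for pairs also an absolute log2 fold change above 0.67, after the study's methods. Adjusted p are Benjamini-Hochberg values over all genes tested. The libraries of a group are separate mice, and replicate numbers are taken from the labels.

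Members, lists and tests were chosen with earlier results of these data known. Named were genes with a known role and paralogs, the 5 highest and 5 lowest log2 fold changes per pair (mean of at least 1), members with an adjusted p under 0.05, the 3 highest and 3 lowest levels, and the 2 highest and 2 lowest of each pathway list in CIA against Ctrl. Rps4l was not analysed here, and a few genes that meet these rules are not reported here. Coordinates are from GENCODE on GRCm38, and start regions from RefSeq on GRCm38.p6. Length and GC content are those of the longest GENCODE transcript of each gene. GC and length corrections were loess fits (span 0.3, degree 1) per library. Alternatives were FPKM as deposited, factors without the members or over the members only, a pseudocount of 1, other filters, no trend, all 9 libraries in a fit, a replicate block, GC and length corrections, leaving out each library, and adjusted p.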

Additional observations from a re-analysis of the deposited data

How the results depend on the processing

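The FPKM hold no counts, so which low values are limited by counting is unknown, and 3 mice a group leave the spread poorly known. With FPKM as deposited, the members' median in CIA+THz against CIA changed sign to 0.0378 (48 higher, 36 lower) and in CIA+THz against Ctrl moved to 0.32. The counts at an unadjusted p under 0.05 were then 36, 16 and 45 (CIA against Ctrl, then the pairs of CIA+THz with CIA and with Ctrl), those at the criterion 0 and 5 in the last 2, and the CIA+THz sum of the members was 51485. These shifts follow from the scaling, since all genes moved by 0.27 and 0.29 in the 2 comparisons with CIA+THz. Scaled over the members, a setting chosen after the data were seen, the medians in CIA against Ctrl and CIA+THz against CIA were by construction near 0 (-0.0053 and 0.0088). The counts at an unadjusted p were then 17 across groups and 4, 18 and 20 in the 3 pairs, and those at the criterion 1 and 0 in CIA against Ctrl and CIA+THz against CIA. Without the trend they were 21 across groups and 13, 20 and 7 in the pairs. With adjusted p in place of unadjusted p they were 4 across groups and 0, 0 and 0 in the pairs, where no member passed the criterion. After the GC correction 13 members had an unadjusted p under 0.05 in CIA against Ctrl and 1 passed the criterion in CIA+THz against Ctrl. After the length correction 8 had one in CIA against Ctrl, and 1, 3 and 1 passed the criterion in the pairs. The median in CIA+THz against Ctrl, 0.01, was -0.095 and -0.12 after these corrections, a change of sign smaller than the spread between replicates. The cause of these differences was not tested. The counts of members in this section stand without shares of all genes.

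Leaving out 1 library gave 20 to 43 members with an unadjusted p across groups (20 without CIA 1, 23 without CIA+THz 1), 7 to 33 in CIA against Ctrl, 21 to 36 in CIA+THz against CIA (21 without CIA+THz 2) and 6 to 19 in CIA+THz against Ctrl (6 without CIA+THz 2, 19 without Ctrl 2 or Ctrl 3). At the criterion it gave 2 to 5, 2 to 9 and 1 to 3, with 5 and 9 without CIA 3, and 2 without CIA 1 in CIA+THz against CIA. The medians were 0.17 to 0.36, -0.27 to -0.18 and -0.07 to 0.13. Libraries with the same number did not deviate together (r across genes from -0.05 to 0.03, beside -0.03 to 0.05 for different numbers). The labels do not say whether the numbers pair mice or mark a batch, and this remains unknown. With the number as a replicate block 31 members had an unadjusted p across groups and 17, 24 and 10 in the pairs, and 2, 4 and 2 passed the criterion, with Rplp0 no longer among them in CIA+THz against CIA.

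For the members and comparisons whose fold change is printed above, a set drawn up after the alternatives had been run, 622 of 684 values under all alternatives kept their direction and their side of the criterion, 35 no longer passed it, 11 newly passed it and 16 changed sign. Over every named member in all 3 pairs, 154 of 2049 values changed sign. The changes of sign in the smaller set were as follows. In CIA against Ctrl, Rps25 was 0.024 with FPKM as deposited and -0.14 to 0.0674 without single libraries, Rpl22l1 was 0.0316 after the GC correction, and Rpl26 and Rpl41 were -0.51 to 0.0069 and -0.30 to 0.05 without single libraries. In CIA+THz against CIA, Rpl7l1 was 0.0791 with FPKM as deposited and 0.0501 scaled over the members, and Rpsa was -0.0013 after the GC correction. Without single libraries Rpsa was -0.0676 to 0.12, Rpl36 was -0.0312 to 0.15 and Rpl37rt was -0.45 to 1.95, and in CIA+THz against Ctrl Rpl37rt was -0.48 to 2.37. Other filters, a pseudocount of 1, factors without the members and a fit of all 9 libraries kept all summary counts within 1.5 times.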
